A study of Mus musculus with 23 samples.

Results

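The enzymes that build purine and pyrimidine nucleotides from small precursors were followed in tumors of IL6Myc mice and in B cells of wild-type mice. The genes were taken by name: PPAT, GART, PFAS, PAICS, ADSL, ATIC and IMPDH2 for purines, and CAD, UMPS and CTPS1 for pyrimidines. Each of the 10 genes had 1 profile among the 15881 profiles with a value above 0. All 10 were among the 11637 genes tested, which had at least 1 CPM (counts put on one library size) in at least 4 libraries. The deposited table gives mouse genes human symbols, and these are kept here.

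Purine synthesis de novo assembles the purine ring step by step on a phosphorylated ribose, up to inosine monophosphate (IMP), from which AMP and GMP are made. Pyrimidine synthesis closes its ring before ribose is attached, and gives UMP and then CTP. Resting lymphocytes draw largely on salvage of ready-made bases and nucleosides, while lymphocytes that divide depend on synthesis de novo. Several of these enzymes are targets of drugs that act on dividing lymphocytes, and many of the genes are known targets of the transcription factor MYC.

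The tumors came from 8 IL6Myc transgenic mice and are labelled as malignant plasma cells. There were 7 tumor libraries from the mesenteric lymph node (MLN) and 7 from the spleen, and 6 mice gave both. Splenic B cells of WT Balb/c mice served as controls, in 5 libraries after 16 hours with LPS, a bacterial wall component that drives B cells to divide, at 1 µg/ml, and in 4 libraries without treatment. These are called activated and quiescent. All samples were enriched for B cells by magnetic negative selection, so the tumor libraries are bulk samples of what the beads left behind. The sources used here do not give the age of the animals, the promoters of the transgenes or the number of animals behind the control libraries. The spread within the control groups may therefore be technical only. The fit shared 1 estimate of spread over tumor mice and control libraries. P-values against the controls, and between them, may thus not measure the spread between control animals.

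Library totals lay between 13328866 and 25045814 estimated counts. Immunoglobulin genes took 1.03% to 26.3% of the counts in tumors, 0.688% to 0.842% in activated and 2.23% to 2.79% in quiescent cells. The labelled cell type was not equally visible in all tumors: 4 libraries (the MLN tumor of mouse 1611 and the spleen tumors of mice 1610, 1612 and 1615) lay below every quiescent library in immunoglobulin share. Counts against the controls are therefore also given without these 4 libraries, a choice made after the values were seen. TMM factors were 0.735 to 0.757 in 3 tumor libraries (the MLN tumor of mouse 1610 and both tumors of mouse 1616), against 0.988 to 1.13 in the other 11, and a low factor raises the CPM of every gene in its library. The 8 plasma cell markers summed to 846 to 27030 CPM in tumors, 1236 to 1279 CPM in activated and 1905 to 2317 CPM in quiescent cells. The 8 B cell markers summed to 155 to 10290 CPM in tumors, 8882 to 9996 CPM in activated and 14910 to 15730 CPM in quiescent cells. The 8 measured macrophage markers summed to 157 to 2391 CPM in tumors, 8.72 to 20.5 CPM in activated and 13.6 to 121 CPM in quiescent cells. Plasma cell markers were called higher in tumors in 4 of 8 against quiescent and 7 of 8 against activated cells, and lower in 0. All 8 B cell markers were called lower than in quiescent cells, and 1 was called higher and 4 lower than in activated cells. All 8 macrophage, 7 erythroid and 6 neutrophil markers measured were called higher in tumors than in either control, and 6 of 7 stromal markers likewise. In addition, 1 stromal marker was called lower in tumors than in activated cells. Of 9 T cell markers, 7 were called higher against quiescent and 8 against activated cells. Among these lists, ELANE and COL1A2 were at 0 in every activated library and LUM in every quiescent library. The part of other cells in the values below was not tested, and in bulk samples fewer cells of a type and less RNA per cell cannot be told apart. The 3 measured Y-linked genes summed to 2.81 to 305 CPM in tumors, 0.504 to 0.913 CPM in activated and 349 to 364 CPM in quiescent cells. The sex of the animals and LPS activation can therefore not be told apart between the control groups. Tumors of mice 1612, 1613 and 1614 had 2.81 to 31.0 CPM of these genes, and those of the other mice 128 to 305 CPM. Tumors may thus also differ from each control in sex, and the part of this was not tested.

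All 10 enzymes were called higher in tumors than in quiescent B cells, and all 10 were called lower in tumors than in LPS-activated B cells. Across the genes tested, 36.9% were called higher in tumors than in quiescent cells and 27.0% were called lower in tumors than in activated cells. The median log2 change of the 10 enzymes was 0.82 against quiescent cells, with a range of 0.40 to 1.39, while the median of all genes tested was 0.08. Against activated cells the median of the enzymes was -0.55, with a range of -1.03 to -0.40, and that of all genes was 0.09. Both comparisons use the same 8 tumor mice, so they are not independent of each other. Without the 4 tumor libraries of low immunoglobulin share, all 10 stayed higher than in quiescent cells (median log2 change 0.95), but only 6 of 10 were called lower than in activated cells (median -0.51). PPAT, PAICS, CAD and UMPS lost that call.

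MYC had 312 to 2110 CPM in tumor libraries, 212 to 231 CPM in activated and 61.4 to 75.5 CPM in quiescent cells. All tumors thus exceeded both controls (log2 change 3.45 ± 0.34 and 1.86 ± 0.29, SE, against quiescent and activated cells). Of all genes tested, 13.3% had every tumor library above every quiescent one, and the share above every activated one is not given here. MKI67, a gene of dividing cells, had 230 to 1092 CPM in tumor libraries, 268 to 381 CPM in activated and 22.97 to 25.6 CPM in quiescent cells. MKI67 was called higher in tumors than in activated cells (log2 change 0.76 ± 0.17, SE, edgeR adjusted p = 0.00122), where all 10 enzymes were called lower.

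**Figure D1:**
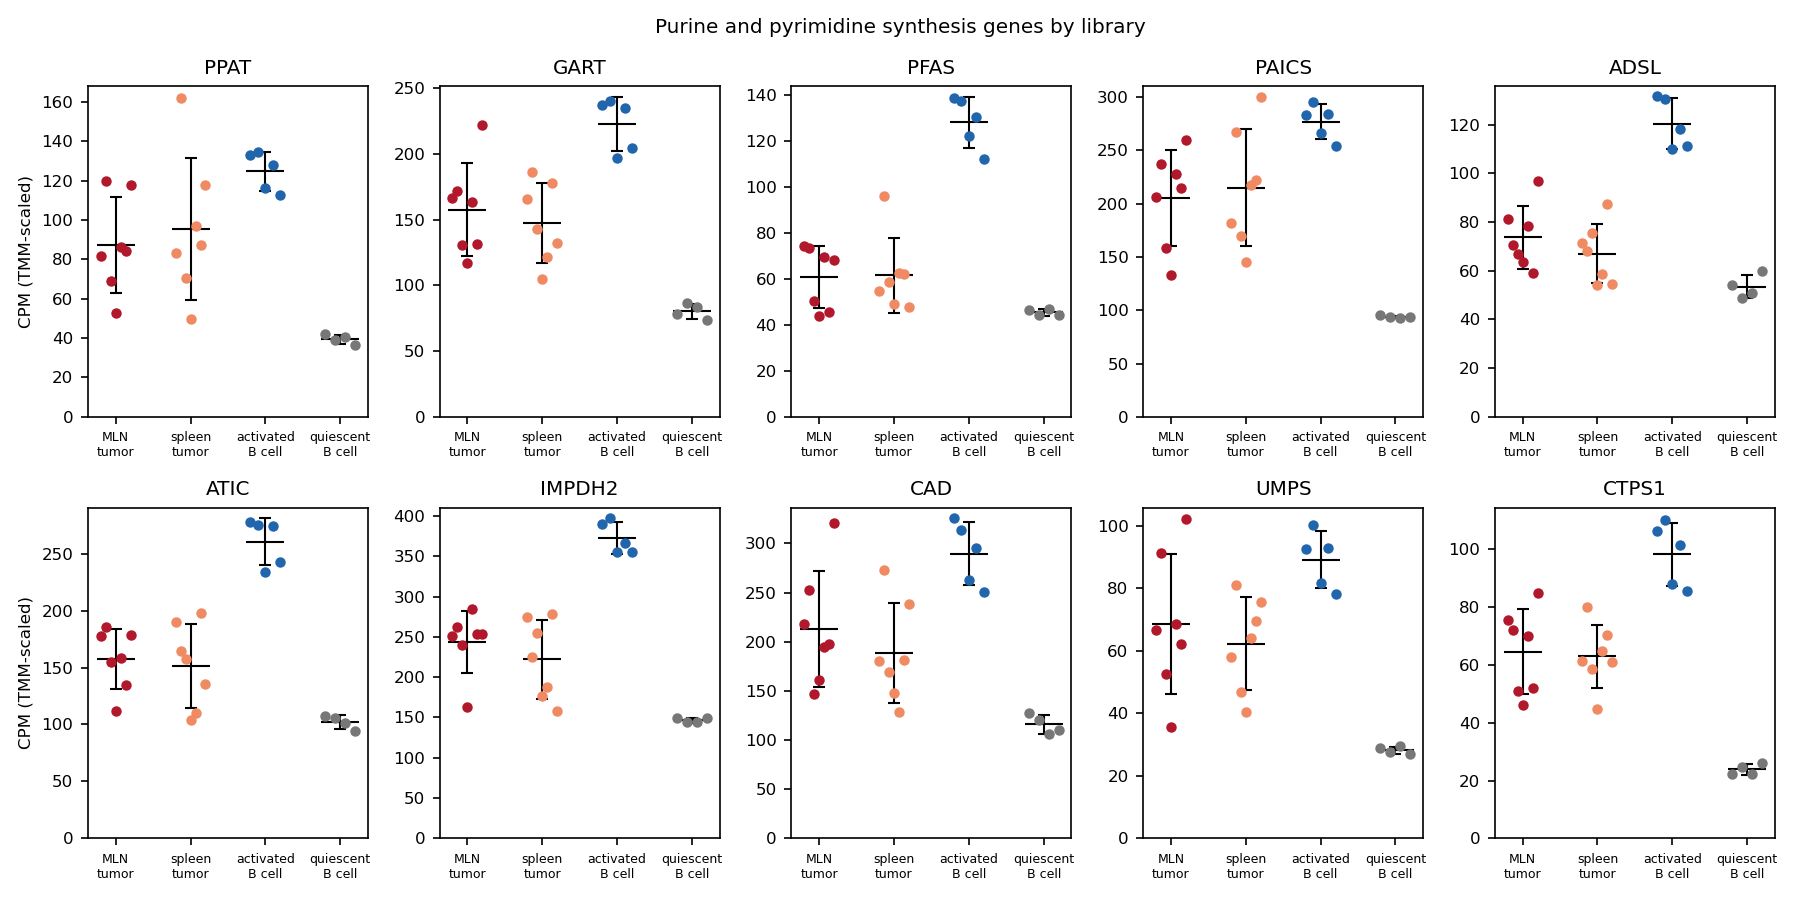
TMM-scaled CPM of the 10 enzymes, with 1 point per library, in MLN tumors, spleen tumors, activated and quiescent B cells. Lines give the group mean ± SD (n = 7 MLN tumor, 7 spleen tumor, 5 activated and 4 quiescent libraries). The tumor points spread over up to 3.27-fold (PPAT) and lie mostly between the tight activated and quiescent groups.

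PPAT catalyses the committed first step of purine synthesis, the transfer of an amino group to the activated ribose PRPP. It had 49.5 to 162 CPM in the 14 tumor libraries, with a median of 85.3 CPM. Activated libraries 1 to 5 had 133, 135, 116, 128 and 113 CPM, and quiescent libraries 1 to 4 had 41.9, 38.9, 40.5 and 36.3 CPM. Every tumor library lay above every quiescent one, while 10 of 14 lay below every activated one and 1, the spleen tumor of mouse 1611, lay above all of them. The log2 change in tumors was 1.13 ± 0.17 against quiescent cells (SE, edgeR adjusted p = 3.46e-05) and -0.47 ± 0.15 against activated cells (adjusted p = 0.011). The difference from activated cells was -0.35 with spleen tumors alone (adjusted p = 0.197) and -0.27 without the 4 libraries of low immunoglobulin share (adjusted p = 0.254).

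GART is a trifunctional enzyme of the early ring-building steps that uses a folate-borne formyl group. It had 105 to 222 CPM in tumor libraries, with a median of 153 CPM. Activated libraries had 237, 240, 197, 235 and 205 CPM, and quiescent libraries had 77.8, 86.8, 83.2 and 73.8 CPM. All tumor libraries lay above the quiescent ones, and 13 of 14 lay below the activated ones, the exception being the MLN tumor of mouse 1616. The log2 change was 0.89 ± 0.11 against quiescent cells (SE, edgeR adjusted p = 8.32e-06) and -0.51 ± 0.10 against activated cells (adjusted p = 0.000351).

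PFAS, which brings in a nitrogen from glutamine, had 44.0 to 96.0 CPM in tumor libraries, with a median of 60.4 CPM. Activated libraries had 139, 138, 122, 130 and 112 CPM, and quiescent libraries had 46.6, 44.2, 47.1 and 44.2 CPM. All 14 tumor libraries lay below the activated ones, and 12 of 14 lay above the quiescent ones. PFAS changed by 0.40 ± 0.11 on the log2 scale against quiescent cells (SE, edgeR adjusted p = 0.00317) and by -1.03 ± 0.09 against activated cells (adjusted p = 2.07e-07), the largest difference from activated cells among the 10.

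PAICS joins a carboxylase and a synthetase of the middle steps in 1 protein. It had 133 to 300 CPM in tumor libraries, with a median of 216 CPM. Activated libraries had 283, 296, 266, 284 and 254 CPM, and quiescent libraries had 95.2, 93.8, 92.8 and 93.9 CPM. Every tumor library lay above every quiescent one, 11 of 14 lay below every activated one, and the spleen tumor of mouse 1616 lay above all activated ones. The log2 change of PAICS was 1.10 ± 0.14 against quiescent cells (SE, edgeR adjusted p = 6.42e-06) and -0.40 ± 0.12 against activated cells (adjusted p = 0.00801). The call against activated cells was lost with spleen tumors alone (-0.33, adjusted p = 0.0994), with quantile normalization and limma (-0.28, adjusted p = 0.0556) and without the 4 libraries of low immunoglobulin share (-0.28, adjusted p = 0.08).

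PPAT and PAICS are neighbours that overlap head to head on mouse chromosome 5. Their RefSeq start sites lie 276 bases apart (Paics at 76951302 on the plus strand, Ppat at 76951578 on the minus strand, GRCm38.p6). In the GENCODE annotation of that build a Ppat exon reaches past the Paics start. Reads from the shared stretch can be told apart only by strand, and the sources used here do not say whether the authors' counting used strand. Over the 14 tumor libraries the log2 CPM of PPAT and PAICS had a Pearson r of 0.917, the highest of the 45 pairs of enzymes (median 0.684; 0.867 without TMM factors, where PFAS with CTPS1 was highest at 0.907), and over all 23 libraries it was 0.971 (median of pairs 0.88). These values are a description, since the libraries share mice and scaling.

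Because many genes of the pathway are known MYC targets, the promoters were searched for CACGTG, the canonical E-box to which MYC binds as a dimer. The motif is its own reverse complement, so both strands give the same matches. RefSeq windows (GRCm38.p6, not the GRCm39 build named for the counts) were at hand for 9 of the 10 genes, PFAS being without one. In the 250 bases before the start site, 3 of 9 genes held the motif, while 6.86% of 27025 genes and 6.02% of 32851 windows did. The 30 bases around each match are printed on the plus strand, with the E-box in capitals.
Paics, chr5:76951087-76951116, 203 bases before the Paics start and in the 5′ exon of Ppat on the opposite strand: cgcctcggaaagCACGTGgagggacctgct
Atic, chr1:71557137-71557166, 7 bases before the start: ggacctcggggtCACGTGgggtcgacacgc
Impdh2, chr9:108560314-108560343, 110 bases before the start and within an annotated Impdh2 transcript: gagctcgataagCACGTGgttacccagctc
A match of letters is not a binding site, and binding was not measured. For the 3 genes with a match, the log2 changes of tumors against quiescent cells were 1.10 (PAICS), 0.58 (ATIC) and 0.65 (IMPDH2). These lay within the range of the 6 searched genes without a match in these 250 bases (0.40 to 1.39). Sequence beyond the windows was not searched, so these 6 may hold the motif elsewhere.

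ADSL splits off fumarate both on the way to IMP and on the branch to AMP. It had 54.2 to 97.1 CPM in tumor libraries, with a median of 69.5 CPM. Activated libraries had 132, 131, 110, 118 and 111 CPM, and quiescent libraries had 54.2, 48.9, 50.9 and 59.8 CPM. All 14 tumor libraries lay below every activated one, and 10 of 14 lay above every quiescent one. ADSL had a log2 change of 0.40 ± 0.09 against quiescent cells (SE, edgeR adjusted p = 0.0014), equal at this rounding to that of PFAS, and -0.71 ± 0.08 against activated cells (adjusted p = 2.53e-06).

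ATIC closes the purine ring and yields IMP. It had 104 to 198 CPM in tumor libraries, with a median of 158 CPM. Activated libraries had 278, 275, 234, 274 and 243 CPM, and quiescent libraries had 107, 106, 101 and 93.9 CPM. All tumor libraries lay below the activated ones and 13 of 14 above the quiescent ones. Its log2 change was 0.58 ± 0.12 against quiescent cells (SE, edgeR adjusted p = 0.000476) and -0.71 ± 0.11 against activated cells (adjusted p = 2.78e-05).

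IMPDH2, the rate-limiting enzyme on the branch from IMP to GMP and the target of mycophenolate, had 158 to 284 CPM in tumor libraries, with a median of 252 CPM. Activated libraries had 390, 398, 355, 366 and 355 CPM, and quiescent libraries had 149, 144, 144 and 149 CPM. The groups did not overlap in either comparison: all tumor libraries lay above the quiescent and below the activated ones. IMPDH2 had a log2 change of 0.65 ± 0.10 against quiescent cells (SE, edgeR adjusted p = 4.61e-05) and -0.63 ± 0.09 against activated cells (adjusted p = 1.71e-05).

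On the pyrimidine side, CAD carries the first enzyme activities of the pathway on 1 polypeptide. It had 129 to 321 CPM in tumor libraries, with a median of 188 CPM. Activated libraries had 326, 313, 263, 295 and 251 CPM, and quiescent libraries had 128, 120, 106 and 111 CPM. Every tumor library lay above every quiescent one and 11 of 14 below every activated one. For CAD the log2 change was 0.74 ± 0.15 against quiescent cells (SE, edgeR adjusted p = 0.000439) and -0.52 ± 0.13 against activated cells (adjusted p = 0.0027), which became -0.37 without the 4 libraries of low immunoglobulin share (adjusted p = 0.0544).

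UMPS makes UMP from orotate at the end of the pathway. It had 35.6 to 102 CPM in tumor libraries, with a median of 65.4 CPM. Activated libraries had 92.7, 100, 81.6, 92.8 and 78.2 CPM, and quiescent libraries had 28.8, 27.5, 29.4 and 27.0 CPM. Every tumor library lay above every quiescent one, 11 of 14 lay below every activated one, and the MLN tumor of mouse 1616 lay above all of them. For UMPS the log2 change was 1.15 ± 0.17 against quiescent cells (SE, edgeR adjusted p = 4.01e-05) and -0.45 ± 0.15 against activated cells (adjusted p = 0.0164). The difference from activated cells was -0.38 with MLN tumors alone (adjusted p = 0.093) and -0.30 without the 4 libraries of low immunoglobulin share (adjusted p = 0.135).

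CTPS1, the CTP synthase that lymphocytes rely on when they proliferate, had the largest difference from quiescent cells among the 10. It had 44.8 to 84.9 CPM in tumor libraries, with a median of 63.1 CPM. Activated libraries had 106, 110, 87.9, 102 and 85.6 CPM, and quiescent libraries had 22.4, 24.7, 22.2 and 26.2 CPM. The 3 groups did not overlap. Its log2 change was 1.39 ± 0.13 against quiescent cells (SE, edgeR adjusted p = 3.65e-07) and -0.58 ± 0.11 against activated cells (adjusted p = 0.000203).

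Complete separation of the libraries from quiescent cells was thus seen for 7 of the 10 enzymes (PPAT, GART, PAICS, IMPDH2, CAD, UMPS and CTPS1), where 13.3% of all genes tested had every tumor library above every quiescent one. Complete separation from activated cells was seen for 5 of the 10 (PFAS, ADSL, ATIC, IMPDH2 and CTPS1), where 12.3% of all genes had every tumor library below every activated one. Without TMM factors these counts were 6 and 6, and over totals without immunoglobulin 7 and 4.

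**Figure D2:**
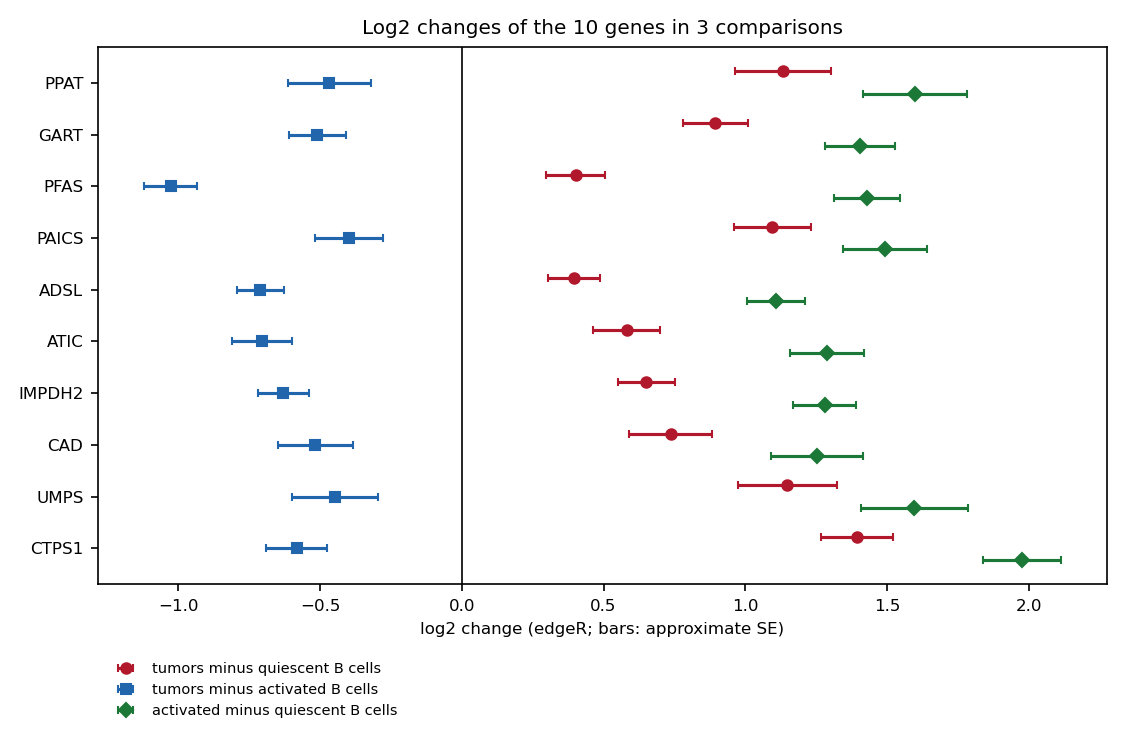
Log2 change (x axis) of each enzyme, with the approximate SE as bars, in tumors against quiescent cells, tumors against activated cells and activated against quiescent cells. All 10 points lie above 0 against quiescent cells and below 0 for tumors against activated cells.

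In the control cells, LPS activation went with higher levels of every enzyme. All 10 were called higher in activated than in quiescent cells, where 25.5% of all genes tested were called higher. The median log2 change was 1.42 (range 1.11 for ADSL to 1.98 for CTPS1), while that of all genes was -0.15. For all 10, every activated library lay above every quiescent one, which held for 32.1% of all genes. PPAT and UMPS both had a log2 change of 1.60, with SE of 0.18 and 0.19 (edgeR adjusted p = 1.63e-06 and 2.31e-06).

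Set on the scale between both controls, the tumors did not stand at the same point for every step. The log2 difference of tumors from quiescent cells, as a share of the difference of activated from quiescent cells, was 73.3% for PAICS, 71.9% for UMPS, 70.8% for PPAT and 70.5% for CTPS1. It was 63.7% for GART, 58.8% for CAD, 50.9% for IMPDH2 and 45.2% for ATIC. It was lowest for ADSL, at 35.8%, and PFAS, at 28.1%. These shares are descriptions made from 3 group means and were not tested against each other.

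Per kilobase of coding sequence (longest coding transcript in GENCODE M21), PAICS and IMPDH2 held the highest ranks in all 3 groups. These lengths leave out untranslated stretches, whose reads may be among the counts. Reads of the stretch shared by PPAT and PAICS may add to either gene. In tumor libraries PAICS (165 ± 37.9 CPM per kb) and IMPDH2 (151 ± 28.4) came first, differing by less than their spread (SD, n = 14). ATIC followed with 86.9 ± 17.4 CPM per kb, then PPAT (58.9 ± 19.3), GART (50.3 ± 10.6), ADSL (48.5 ± 8.69), UMPS (45.3 ± 12.9), CTPS1 (36.0 ± 7.05) and CAD (30.1 ± 8.14). From PPAT down to CAD, neighbours in this order differed by less than the larger of their SDs. PFAS was lowest in all 3 groups, with 15.3 ± 3.58 CPM per kb in tumors, 32.0 ± 2.75 in activated (n = 5) and 11.3 ± 0.382 in quiescent cells (n = 4). IMPDH2 ranked first in both controls, with 242 ± 12.9 CPM per kb in activated and 95.1 ± 1.97 in quiescent cells.

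No enzyme of the pathway was called different between tumor sites. In MLN against spleen tumors, 0 of the 10 enzymes and 0 of 11637 genes (0.0%) were called by edgeR. At an unadjusted p under 0.05 there were 511 genes, 0 of them enzymes of the pathway, and DESeq2 called 20 genes, again with 0 of the 10. Log2 differences of MLN from spleen tumors ran from -0.15 ± 0.25 (SE) for PPAT to 0.15 ± 0.20 for CAD. Within the 6 mice that gave both tumors, the MLN tumor had more CAD in 5 mice and less PPAT and PAICS in 4 mice each. Single mice differed widely: in mouse 1611 the log2 difference of MLN from spleen was -1.23 for PPAT and -0.92 for PFAS, and in mouse 1616 it was 0.83 for ADSL and 0.69 for IMPDH2. All 10 log2 differences between the sites were smaller than their SE, so differences of that size were not detectable with 7 libraries per site.

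Among the tumor libraries, the enzymes moved in more than 1 way. The 4 libraries with the most MYC were the spleen tumor of mouse 1616 (2110 CPM), the MLN tumors of mice 1610 (1737 CPM) and 1616 (1400 CPM) and the spleen tumor of mouse 1611 (1241 CPM). These 4, which include both tumors of mouse 1616, were also the 4 highest in immunoglobulin share, and the 4 highest in PPAT, PAICS, CAD and UMPS. How many of all genes tested had these same 4 libraries highest was not counted. The ranks of the enzymes rest on the scaling, since 3 of the 4 libraries are those with low TMM factors. Of the 4, CPM over library totals left 1 among the highest 4 for PPAT and PAICS and 2 for CAD and UMPS. CPM over totals without immunoglobulin left 2 for PAICS and 3 for PPAT, CAD and UMPS (both scalings added after the values were seen). The 4 with the most MYC also changed over library totals, where the MLN tumor of mouse 1615 (1172 CPM) replaced that of mouse 1616 (1028 CPM). On the TMM scale the 4 libraries named first held 3 of the highest 4 places for GART and CTPS1, 2 for PFAS and ATIC, and 1 for ADSL and IMPDH2. The spleen tumor of mouse 1616 had the least IMPDH2 of all 14 (158 CPM) under all 3 scalings. It had the most PAICS (300 CPM) on the TMM scale, but came sixth over library totals (224 CPM, where the spleen tumor of mouse 1611 had 264 CPM). Across the 45 pairs of enzymes, Pearson r of log2 CPM over the 14 tumor libraries ran from 0.183 (PAICS with IMPDH2, 0.305 without TMM factors) to 0.917 (PPAT with PAICS).

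**Figure D3:**
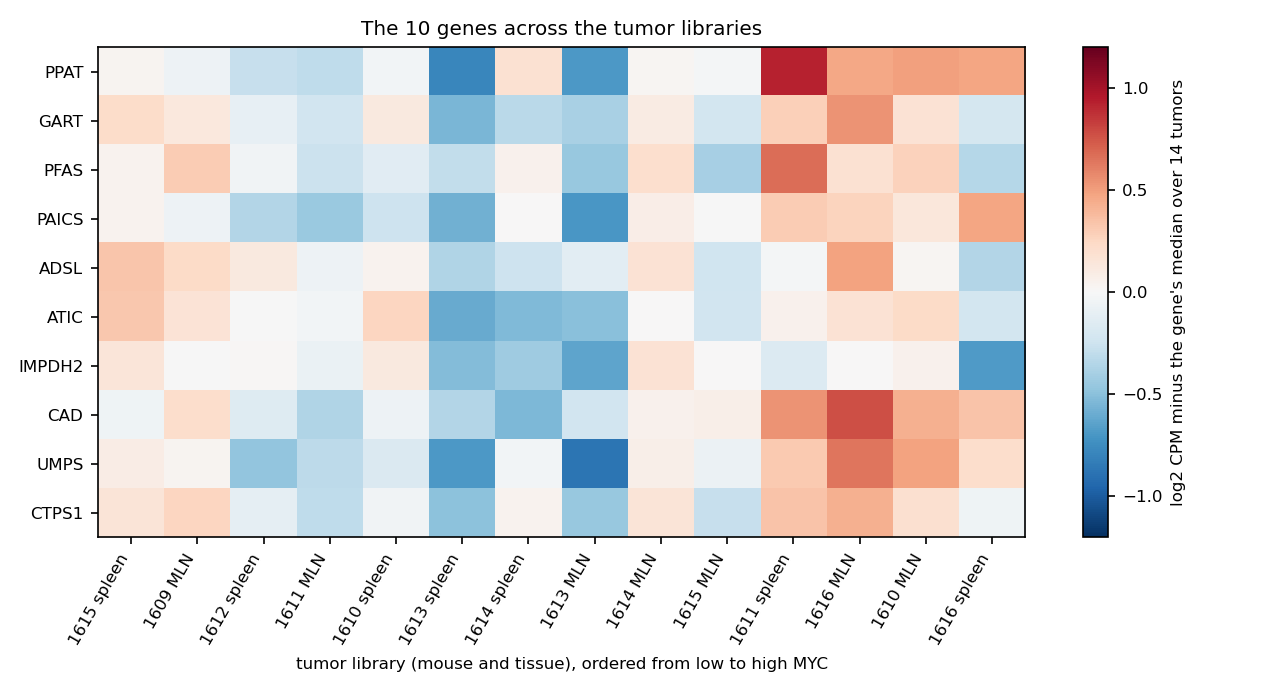
Level of each enzyme in each tumor library, as log2 CPM minus the median of that enzyme over the 14 tumor libraries, with libraries ordered by MYC. On this TMM scale PPAT, PAICS, CAD and UMPS are highest in the 4 libraries with the most MYC. Without TMM factors, these 4 libraries hold 1 (PPAT, PAICS) or 2 (CAD, UMPS) of the highest 4 places. The MLN tumor of mouse 1615 then replaces that of mouse 1616 among the 4 with the most MYC. IMPDH2 is lowest in the spleen tumor of mouse 1616.

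Over the 8 mice (tumors of a mouse summed), 20 relations were computed, each enzyme with MYC and with the proliferation gene MKI67. None passed after adjustment over the 20. The highest rank correlation with MYC was that of PPAT, with Spearman's rho of 0.881 (exact permutation p = 0.00724, adjusted 0.145) and Pearson's r of 0.649 (exact permutation p = 0.09, adjusted 0.246). UMPS had the highest r with MYC, 0.654 (exact permutation p = 0.087, adjusted 0.246). Without mice 1609 and 1616, the farthest from the median of MYC, r was 0.569 for PPAT and 0.654 for UMPS. The highest with MKI67 was PFAS, with r of 0.834 (exact permutation p = 0.0116, adjusted 0.231) and rho of 0.81 (exact permutation p = 0.0218, adjusted 0.218), and r was 0.332 without mice 1609 and 1613. IMPDH2 had r of -0.16 with MYC (exact permutation p = 0.661, adjusted 0.778). These relations rest on the scaling. Without TMM factors, r with MYC was 0.232 for PPAT, 0.229 for UMPS and -0.647 for IMPDH2. The strongest with MYC was then that of ADSL, at -0.815 (exact permutation p = 0.0138, adjusted p = 0.0553), where it was 0.055 with TMM factors. Also without TMM factors, 4 enzymes passed with MKI67: CTPS1 (r 0.944, exact permutation p = 0.0001488, adjusted p = 0.00298), PFAS (0.895), GART (0.854) and PAICS (0.85). The adjusted p of the exact permutation test was 0.0194 for each of the last 3. A total shared by both genes of a relation moves them together, and the part of this was not tested.

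IMPDH2 and CTPS1 each have a paralog that catalyses the same reaction, IMPDH1 and CTPS2. CTPS2 was called lower in tumors than in quiescent cells, the opposite direction to CTPS1. It had 12.6 to 54.5 CPM with a median of 37.0 CPM in tumor libraries, against 74.7 to 82.4 CPM in quiescent cells. All 14 tumor libraries lay below all quiescent ones, as 16.2% of all genes did, at a log2 change of -1.10 ± 0.16 (SE, edgeR adjusted p = 2.88e-05). Activated cells had 44.1 to 52.2 CPM, also called lower than quiescent cells (-0.78 ± 0.18, adjusted p = 0.00157). Against activated cells the tumors' log2 change was -0.33 ± 0.15 (adjusted p = 0.0731), which became -0.64 without the 4 libraries of low immunoglobulin share (adjusted p = 0.0126).

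IMPDH1 spread 9.93-fold over the tumor libraries, where the widest of the 10 enzymes, PPAT, spread 3.27-fold. It ran from 26.4 to 262 CPM with a median of 74.9 CPM. Activated cells had 46.5 to 67.3 CPM and quiescent cells 33.2 to 36.8 CPM. On the TMM scale its 4 highest tumor libraries were the 4 with the most MYC, at 165 to 262 CPM. The same 4 libraries were highest in IMPDH1 under all 3 scalings, but over library totals they held 3 of the 4 highest places in MYC. The log2 change in tumors was 1.39 ± 0.39 against quiescent cells (SE, edgeR adjusted p = 0.00463) and 0.76 ± 0.34 against activated cells (adjusted p = 0.0637). The difference from activated cells was 0.24 without mouse 1616 and 1.25 without the 4 libraries of low immunoglobulin share (adjusted p = 0.00321).

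The ratios of the paralogs put this in 1 number per mouse, a measure chosen after the values were seen, with 6 tests adjusted together. The ratio of CTPS1 to CTPS2 CPM averaged 1.76 in tumor mice and 2.05 in activated cells, against 0.305 in quiescent cells (geometric means). Single libraries ran from 0.844 to 5.31 in tumors, 1.69 to 2.41 in activated and 0.271 to 0.351 in quiescent cells, so both other groups lay above all quiescent libraries. The log2 difference of tumors from quiescent cells was 2.53 (2-sided exact permutation p = 0.00202, the smallest possible, adjusted p = 0.0121). All tumor libraries lay above the quiescent ones in CTPS1 and below them in CTPS2. The ratio therefore had to separate, and this p adds no support. Tumors and activated cells differed by -0.22 (exact permutation p = 0.459).

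The ratio of IMPDH2 to IMPDH1 averaged 2.86 in tumor mice, 6.46 in activated and 4.10 in quiescent cells. Single tumor libraries ran from 0.621 (spleen, mouse 1616) to 10.5 (spleen, mouse 1615), beyond both controls at both ends (5.28 to 8.37 in activated, 3.91 to 4.50 in quiescent cells). Tumors differed from activated cells by -1.18 on the log2 scale (exact permutation p = 0.014, adjusted p = 0.021; adjusted p = 0.0545 without activated library 1). They differed from quiescent cells by -0.52 (exact permutation p = 0.325). These ratios are of CPM without length correction, so only their differences between groups can be read.

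**Figure D4:**
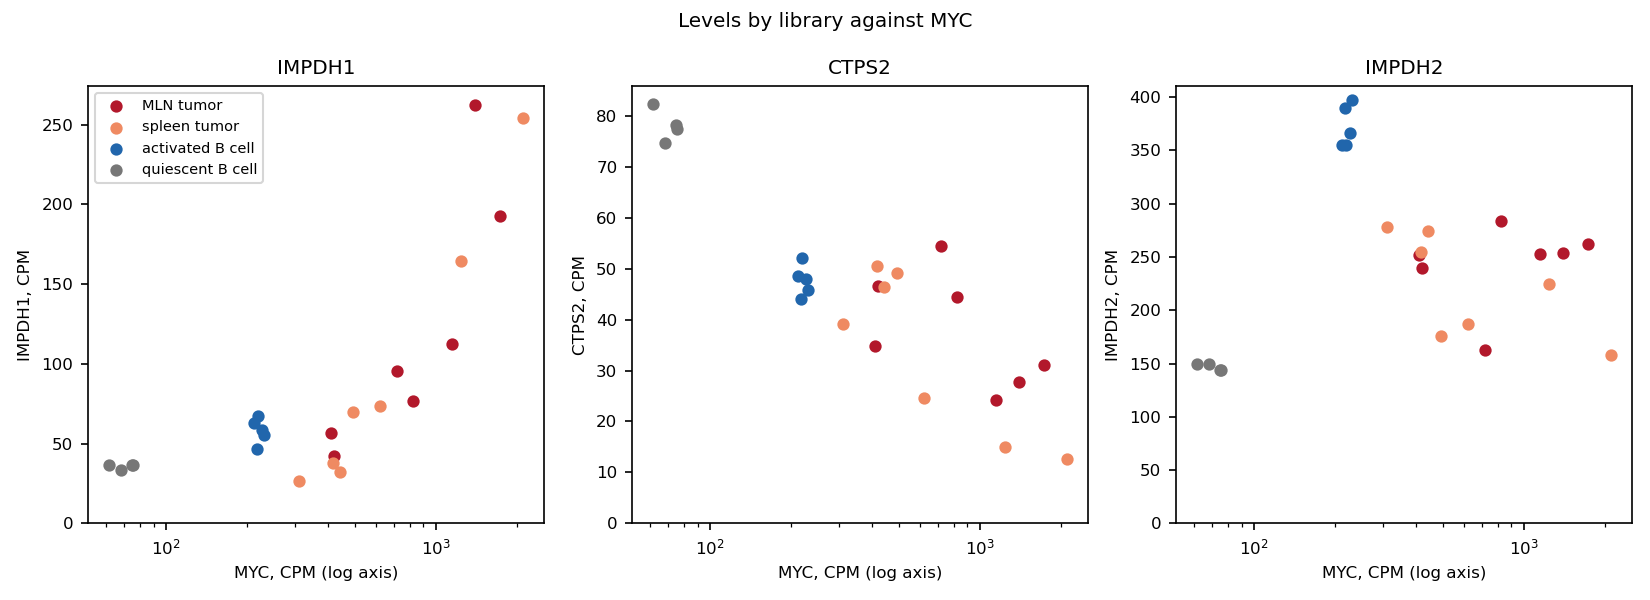
CPM of IMPDH1, CTPS2 and IMPDH2 (y axes) against MYC CPM (x axis), with 1 point per library coloured by group. On this TMM scale IMPDH1 is highest in the 4 tumor libraries with the most MYC (3 of the 4 over library totals). CTPS2 in all tumor libraries lies below the quiescent points.

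Around the 10 enzymes, 6 further groups of nucleotide genes were counted. Among all genes tested, 36.9% were called higher and 31.9% lower in tumors than in quiescent cells, 36.2% and 27.0% in tumors against activated cells, and 25.5% and 34.1% in activated against quiescent cells. In the supply of PRPP and the remaining steps de novo, 8 of 10 listed genes were tested, ADSS1 and ADSS2 being without values. Of these, 3 were called higher and 4 lower in tumors than in quiescent cells, and 1 higher and 4 lower than in activated cells (median log2 change -0.19 and -0.40). PRPS1, which makes PRPP, averaged 56.0 ± 7.5 CPM in tumors, 90.4 ± 5.42 CPM in activated and 36.9 ± 3.38 CPM in quiescent cells (SD). Its log2 change was -0.66 in tumors against activated cells (edgeR adjusted p = 9.92e-08) and 1.23 in activated against quiescent cells (adjusted p = 1.14e-09). The name PRPS1 stands on 2 profiles, and the higher one was used. PRPSAP1, a PRPP synthetase-associated protein, was called higher in tumors than in activated cells by 0.26 (adjusted p = 0.0045). That call was lost without mouse 1616 (0.15, adjusted p = 0.0789), without the 3 libraries of low TMM factor (0.17, adjusted p = 0.0805), without immunoglobulin genes (0.15, adjusted p = 0.0704) and with spleen tumors alone (0.22, adjusted p = 0.0846). Over the alternatives the group counted 0 to 2 higher and 3 to 6 lower than in activated cells, with 2 and 6 without the 4 libraries of low immunoglobulin share.

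Folate enzymes that hand formyl and methylene groups to purine and thymidylate synthesis were mostly higher than in quiescent and lower than in activated cells. Of 11 tested, 9 were called higher and 2 lower in tumors than in quiescent cells (median log2 change 1.04), and 0 were higher and 6 lower than in activated cells (median -0.56). Without the 4 libraries of low immunoglobulin share, 1 was higher and 5 lower than in activated cells. In activated against quiescent cells, 8 were higher and 1 lower. MTHFD2, a mitochondrial enzyme of proliferating cells, averaged 79.2 ± 54.2 CPM in tumors, 283 ± 13.1 CPM in activated and 16.5 ± 1.81 CPM in quiescent cells, and its log2 change of -1.95 against activated cells was the largest fall of the list (edgeR adjusted p = 4.81e-06). ALDH1L2, which oxidises formyl folate in mitochondria, had 0.531 to 199 CPM in tumors, 20.2 to 27.1 CPM in activated and 0.38 to 0.742 CPM in quiescent cells. Its log2 change was 4.99 in tumors and 5.20 in activated cells, both against quiescent cells (adjusted p = 0.0012 and 0.00118), and the tumor value was 3.74 without mouse 1616, whose spleen tumor had the highest level. MTHFD2L, the isozyme, was called lower than in quiescent cells in both (log2 change -0.98 in tumors, adjusted p = 0.041, and -1.13 in activated cells, adjusted p = 0.042), and both calls were lost under 10 alternatives each.

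In deoxynucleotide synthesis, 8 of 10 genes were called higher and 2 lower in tumors than in quiescent cells (median log2 change 1.58), and 1 was higher and 4 lower than in activated cells (median -0.24). With spleen tumors alone 1 was lower than in activated cells, and 7 were higher and 0 lower than in quiescent cells. In activated against quiescent cells, 8 were higher and 2 lower. RRM2, the S-phase subunit of ribonucleotide reductase, averaged 150 ± 75.9 CPM in tumors, 175 ± 32.1 CPM in activated and 7.62 ± 1.23 CPM in quiescent cells (log2 change in tumors against quiescent cells 4.26, edgeR adjusted p = 2.97e-08). TYMS, thymidylate synthase, averaged 36.2 ± 19.1 CPM in tumor libraries and 113 ± 17.2 CPM in activated ones, a log2 change of -1.64 (adjusted p = 1.04e-06), against 4.78 ± 1.04 CPM in quiescent cells. RRM2B, the reductase subunit of resting cells, fell by 0.82 on the log2 scale in tumors against quiescent cells (adjusted p = 0.000288), a call lost with spleen tumors alone (adjusted p = 0.0799). SAMHD1, which degrades dNTPs, was called lower in activated than in quiescent cells (-0.96, adjusted p = 0.000193), and its call as higher in tumors than in activated cells (0.37, adjusted p = 0.0424) was lost under 20 of 29 alternatives.

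Salvage was mixed. Of 13 genes, 7 were called higher and 5 lower in tumors than in quiescent cells, and 4 higher and 2 lower than in activated cells (median log2 change 0.54 and -0.02). Without the 4 libraries of low immunoglobulin share, 5 were higher and 5 lower than in quiescent cells, and 2 higher and 3 lower than in activated cells. With spleen tumors alone, 1 was higher and 2 lower than in activated cells, and with MLN tumors alone 2 were higher and 5 lower. ADA, adenosine deaminase, stood above both controls: it averaged 86.7 ± 50.8 CPM in tumors, 13.8 ± 0.48 CPM in activated and 5.06 ± 0.359 CPM in quiescent cells, at log2 changes of 2.53 against activated cells (edgeR adjusted p = 4.7e-06) and 3.91 against quiescent cells (adjusted p = 6.76e-07). Every tumor library, from 25.8 CPM up, lay above every control library. Of all genes tested, 13.3% had every tumor library above every quiescent one, and the share above every activated one is not given here. HPRT1, which salvages hypoxanthine and guanine, averaged 110 ± 19.3 CPM in tumor libraries and 203 ± 11.1 CPM in activated ones (log2 change -0.84, adjusted p = 7.66e-07), against 74.6 ± 3.26 CPM in quiescent cells. UCK2, uridine-cytidine kinase, averaged 160 ± 82.9 CPM in tumors, 133 ± 8.37 CPM in activated and 10.3 ± 2.77 CPM in quiescent cells. TK2, the mitochondrial thymidine kinase, fell by 1.11 in tumors and by 1.49 in activated cells on the log2 scale against quiescent cells (adjusted p = 0.00042 and 9.29e-05).

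Nucleoside mono- and diphosphate kinases, which raise nucleotides to the triphosphate, were called higher than in quiescent cells in 10 of 12 tested and lower in 0, and 4 were higher and 2 lower than in activated cells (median log2 change 0.91 and 0.09). The balance against activated cells turned with the scaling and with 3 libraries: quantile normalization gave 2 higher and 5 lower (6 higher and 1 lower than in quiescent cells), and leaving out the libraries of low TMM factor gave 4 higher and 6 lower. NME4 averaged 5.70 ± 2.42 CPM in tumors and 0.717 ± 0.298 CPM in quiescent cells. The mitochondrial adenylate kinases AK3 and AK4 went opposite ways between tumors and activated cells. AK3 averaged 94.3 ± 42.1 CPM in tumor libraries and 22.8 ± 2.94 CPM in activated ones (log2 change 1.96, edgeR adjusted p = 1.24e-06), against 44.8 ± 2.14 CPM in quiescent cells. AK4 averaged 1.68 ± 3.37 CPM in tumor libraries and 65.0 ± 24.2 CPM in activated ones (log2 change -5.11, adjusted p = 1.22e-05, and -6.22 without mouse 1611), against 0.253 ± 0.0673 CPM in quiescent cells.

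Of 12 breakdown genes tested (of 17 listed), 6 were called higher and 1 lower in tumors against each control (median log2 change 0.54 against quiescent and 0.98 against activated cells). Against quiescent cells, quantile normalization left 3 higher and 2 lower, spleen tumors alone left 4 higher, and leaving out the 4 libraries of low immunoglobulin share left 5 higher. GDA, guanine deaminase, had 2.13 to 201 CPM in tumors, 0 to 0.125 CPM in activated and 0.164 to 2.55 CPM in quiescent cells. UPP1, uridine phosphorylase, had 0 to 29.8 CPM in tumors, 0 to 0.124 CPM in activated and 0 to 0.124 CPM in quiescent cells, with the highest value in the MLN tumor of mouse 1611, and its call against quiescent cells was lost with quantile normalization (adjusted p = 0.262) and with limma at a pseudocount of 5 (adjusted p = 0.14). Both were at or near 0 in activated cells, where no fold change can be read. MTAP, which recovers adenine and methionine from polyamine synthesis, averaged 37.5 ± 11.7 CPM in tumor libraries and 83.0 ± 6.03 CPM in activated ones (log2 change -1.14, edgeR adjusted p = 1.17e-05), against 35.4 ± 4.04 CPM in quiescent cells. NT5C, a deoxynucleotidase, fell by 0.44 in tumors against quiescent cells (adjusted p = 0.000204). The summed macrophage markers, given above, were also higher in tumors than in both controls, and their part in the levels of GDA, UPP1 and ADA was not tested.

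**Figure D5:**
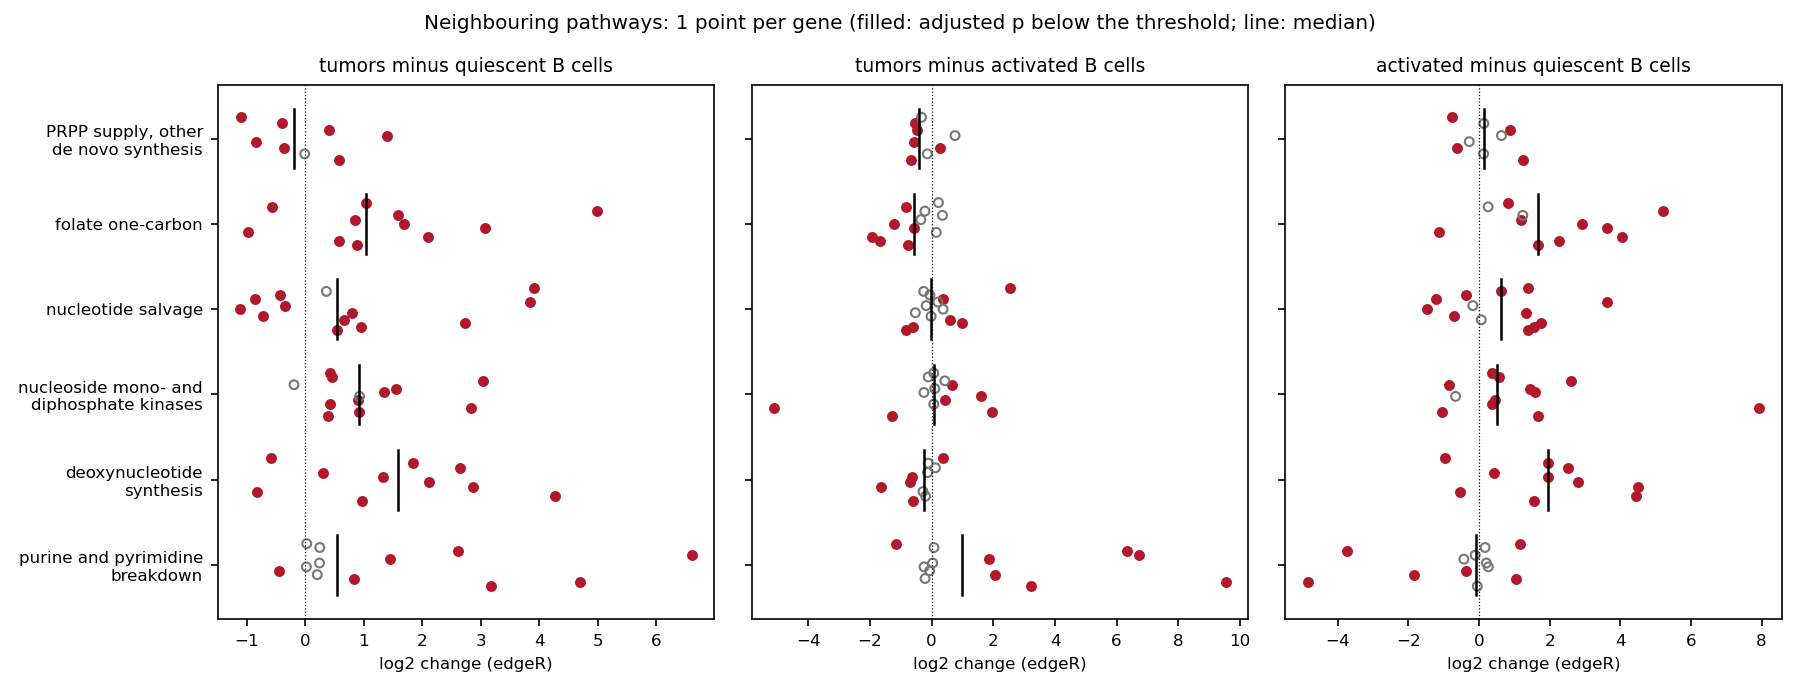
Log2 change (x axis) of each gene in 6 groups of nucleotide genes, in 3 comparisons, with 1 point per gene. Filled points are called genes, open points are genes not called, and lines give the group median. In tumors against activated cells, 0 folate enzymes were called higher and 6 lower, while 6 breakdown genes were called higher and 1 lower.

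Outside nucleotide metabolism, the profile most like the mean of the 10 enzymes over the 23 libraries was that of NOP58, a protein of ribosomal RNA modification (Pearson r 0.982, and 0.94 over the 14 tumor libraries alone). It was followed by TIMM8A, a mitochondrial import protein (0.981 and 0.929), YWHAE, a 14-3-3 protein (0.98 and 0.914), CCT6A, a chaperonin subunit (0.98 and 0.936), and RSL1D1, a nucleolar protein (0.979 and 0.899). Likeness was measured on log2(CPM + 1), with each enzyme standardised and the 10 averaged, and is a description. The log2 changes of these 5 genes were 0.67 to 1.28 in tumors against quiescent cells and -1.02 to -0.48 against activated cells.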

How the data were processed

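RNA sequencing of 23 mouse libraries was used. The authors deposited 1 table of estimated counts per gene and library, although its title speaks of TPM. The unit was set from the values, which are not whole and sum to 13328866 to 25045814 per library. Reads were trimmed with Trim Galore 0.4.0, the genome build was GRCm39 and DESeq2 was used, per the submitters' processing notes. The quantifier, its use of strand and the source of the human symbols are not stated. All value columns were mapped to samples.

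The table lists 61651 entries, of which 17047 were above 0, and those with the same values in all libraries were taken as 1, which left 15881 profiles. Estimated counts were rounded and tested with edgeR 4.0.16 (quasi-likelihood, TMM factors, 2-sided, R 4.3.3). The test covered 11637 genes, those reaching 1 CPM in 4 libraries or more, with Benjamini-Hochberg adjustment over all of them and a threshold of 0.05. Adjusted p-values are edgeR's unless another tool is named. CPM in the text are TMM-scaled over the 23 libraries. The SE of a log2 change was approximated as its size over the root of the F statistic.

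The mouse was the replicate: counts of both tumors of a mouse were summed, and 8 tumor mice, 5 activated and 4 quiescent libraries entered 1 fit. The tumor sites were compared over 14 libraries. Equal tumor numbers mark 1 animal in the series' design text. For the 6 mice with both tumors, deviations from the site means correlated at -0.20, -0.36, 0.41, -0.29, -0.49 and 0.72 (mice 1610, 1611, 1613, 1614, 1615 and 1616). No libraries of a group agreed within sampling noise (chi-square per degree of freedom 6.33 or more).

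Alternatives were other size factors, quantile normalization with limma 3.58.1, limma on log2(CPM + 1) or (CPM + 5), DESeq2 1.42.0, no filter, immunoglobulin genes or single replicates left out, each tumor site alone, all tumor libraries taken as independent, and a replicate block. The edgeR step was tested on simulated data. The 10 genes, the 6 further groups and the marker lists were chosen with earlier results of these data known. Besides these, the genes named are MYC, MKI67, the paralogs IMPDH1 and CTPS2, the largest called rise and fall of each group per comparison, and the 5 genes most alike. Gene starts, coding lengths and promoters are of GRCm38, so no coordinates of the counts' own build are given.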

Additional observations from a re-analysis of the deposited data

Results flagged for a closer look

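In 48 sets of libraries (the 10 enzymes, IMPDH1 and CTPS2 in each of 4 groups), the highest or lowest library was compared with its group, and 3 stood apart. Chance flags about 1 set in 20. PFAS was high in the spleen tumor of mouse 1611, at 96.0 CPM, where the other spleen tumors had 47.8 to 62.4 CPM. IMPDH2 was low in the MLN tumor of mouse 1613, at 163 CPM, where the other MLN tumors had 239 to 284 CPM. IMPDH1 was low in quiescent library 4, at 33.2 CPM, where the other quiescent libraries had 36.6 to 36.8 CPM.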

How the results depend on the processing

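All 10 enzymes were called higher in tumors than in quiescent cells, and in activated than in quiescent cells, under every alternative run. Against activated cells, 10 of 10 were called lower, except 9 with MLN tumors alone and with quantile normalization, 8 with spleen tumors alone, and 6 without the 4 tumor libraries of low immunoglobulin share. Without the 3 libraries with a TMM factor under 0.8 (MLN 1610 and both tumors of 1616) it was 10, with a median log2 change of -0.72. The last 2 alternatives were chosen after the values were seen. The cause of these shifts was not tested.

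Quantile normalization moved the share of higher among called genes to 39.6% from 53.6% for tumors against quiescent cells and to 38.0% from 57.3% for tumors against activated cells. With it the median log2 change of all genes was -0.11 in both comparisons (0.08 and 0.09 with TMM) and that of the enzymes 0.97 and -0.44.

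Between MLN and spleen tumors, DESeq2 called 20 genes where edgeR called 0. With the mouse as replicate block over 6 pairs, 0 genes were called and CTPS1 was -0.044 in place of 0.0145 on the log2 scale. Directions between sites turned when single mice were left out: PPAT ran from -0.2664 to 0.0931, GART from -0.031 to 0.1962, PFAS from -0.1084 to 0.1579, PAICS from -0.1484 to 0.0451 and ATIC from -0.0255 to 0.17. CTPS1 ran from -0.0506 to 0.1457, CTPS2 from -0.0316 to 0.2904, MYC from -0.0931 to 0.5748 and MKI67 from -0.3736 to 0.0839.

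In activated against quiescent cells, a fit with a replicate block by number gave 8426 called genes, where the main fit called 6925. In it all 10 enzymes were called higher, and IMPDH1 was called (edgeR adjusted p = 7.63e-05, and 0.186 in the main fit). The block fit also left out the tumors and activated library 5, so the part of the block in these shifts cannot be told apart. Activated and quiescent libraries of the same number did not deviate together (r of -0.018 to 0.003), so they share only a number. Of the 20 relations with MYC and MKI67, 0 passed with all mice, 0 with a pseudocount of 5, 4 without TMM factors and between 0 and 1 without single mice: PFAS with MKI67 passed without mouse 1615 (r 0.965, exact permutation p = 0.00159, adjusted p = 0.0318).

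All 10 enzymes were well above the filter on low counts at this depth. Human symbols can hide which mouse gene was counted.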
